A study of Mus musculus with 6 samples.

Results

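Nek5 and the NIMA-related kinase genes Nek1 to Nek9 were examined in bulk RNA-seq of the mouse hippocampus. The members were the rows of the deposited count table that carry these 9 symbols, and all 9 were present among 20620 listed genes. Nek5 was selected on its expression values in these same 6 libraries, being nearly absent from n-Braf, so its difference between the groups is given as a description without a test. The other 8 were taken by family name. The n-Braf group was 3 male mice of genotype Braf Q241R/+ ;CaMKII-Cre, aged 32 to 34 weeks. The control group was 3 male mice of genotype Braf Q241R Neo/+, aged 31 to 32 weeks. Both groups were on a C57BL/6J background, and both carry 1 Braf allele with the Q241R substitution, so the controls are not wild type. In n-Braf mice the CaMKII promoter drives Cre, and the series' design states that the mutant is then made in mature excitatory neurons. The controls keep the Neo cassette and have no Cre label, so effects of Cre, of the cassette and of the mutant kinase cannot be told apart. Each library came from a separately numbered mouse. Control 1 stood apart from all the other libraries: the chi-square of counts per degree of freedom was 51.1 to 69.2 in pairs with it and 8.89 to 14.1 in pairs without it.

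NIMA-related kinases (NEKs) are serine/threonine kinases named after NIMA, a mitotic kinase of the fungus Aspergillus. Vertebrate members divide between the cell division cycle, where Nek2 and Nek5 act at the centrosome and Nek6, Nek7 and Nek9 in spindle assembly, and the cilium, where Nek1 and Nek8 are linked to ciliopathies. Neurons of the adult hippocampus do not divide but carry a primary cilium, while the ependymal cells that line the ventricles beside the hippocampus carry many motile cilia.

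The start regions of Nek5, of its neighbour Nek3 and of Nek2 are printed here. Nek5 carries the difference, and these are the windows that held a match among those of the 8 members with a RefSeq entry. Each sequence is the RefSeq promoter window on build GRCm38.p6, 250 bases before to 50 after the annotated start, read 5′ to 3′ on the gene's own strand. Capitals mark matches to the X-box, the motif bound by RFX factors of ciliary genes, searched as GT, any 2 bases, CC, any 3 bases, G, any 2 bases and AC, and to a common form of its left arm, searched as GTTGCC. Both were searched on both strands, as was CCAAT, which is not capitalised. The Nek5 window lies at chr8:22125018-22125317 on the minus strand, the Nek3 window at chr8:22162445-22162744 on the minus strand and the Nek2 window at chr1:191821223-191821522 on the plus strand.
Nek5: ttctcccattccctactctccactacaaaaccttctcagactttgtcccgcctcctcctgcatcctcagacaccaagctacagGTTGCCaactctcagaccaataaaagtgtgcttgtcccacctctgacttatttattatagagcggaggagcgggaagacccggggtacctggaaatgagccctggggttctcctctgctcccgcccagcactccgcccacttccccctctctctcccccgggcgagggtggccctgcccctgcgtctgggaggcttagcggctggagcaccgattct
Nek3: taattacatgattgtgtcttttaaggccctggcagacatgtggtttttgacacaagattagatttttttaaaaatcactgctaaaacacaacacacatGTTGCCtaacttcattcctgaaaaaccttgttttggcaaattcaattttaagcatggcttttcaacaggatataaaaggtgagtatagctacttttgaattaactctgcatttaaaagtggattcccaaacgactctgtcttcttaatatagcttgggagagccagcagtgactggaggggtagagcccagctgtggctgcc
Nek2: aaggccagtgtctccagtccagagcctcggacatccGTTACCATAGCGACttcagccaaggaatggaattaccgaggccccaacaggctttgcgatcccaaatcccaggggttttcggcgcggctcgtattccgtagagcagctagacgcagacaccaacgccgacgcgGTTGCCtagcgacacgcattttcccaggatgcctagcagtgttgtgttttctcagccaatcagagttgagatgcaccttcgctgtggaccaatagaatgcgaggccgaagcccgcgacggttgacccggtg

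Nek5 held the left arm 167 bases before its start and Nek3 held it 152 bases before its start, and neither held the full X-box. Nek2 held the full motif as GTTACCATAGCGAC, starting 214 bases before its start, and the left arm 81 bases before it. Of the 8 members, 3 held the left arm and 1 the full X-box, and Nek4, Nek6, Nek7, Nek8 and Nek9 held neither. The full X-box occurred in 4.62% of all 32851 promoter windows and the left arm in 12.5%. CCAAT occurred in the windows of Nek2, Nek5 and Nek6, and in 37.4% of all windows. RefSeq and GENCODE place the start of Nek3 differently, so its window lies inside the GENCODE gene. A match is a description of the letters and does not show that a factor binds there.

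Nek5 (ENSMUSG00000037738) is annotated by GENCODE M21 (GRCm38) to bases 22073616 to 22125053 of chromosome 8, minus strand, with 2.90 kb of merged exons. The deposited table gives it 4, 4 and 3 expected counts in n-Braf 1, 2 and 3, against 70, 46 and 23 in controls 1, 2 and 3. Scaled by library size with TMM, edgeR's correction for composition, these counts were 0.125, 0.126 and 0.102 CPM (counts per 1000000) in n-Braf, against 2.61, 1.72 and 0.895 CPM in the controls. The 3 n-Braf libraries were all low and close to each other, the controls were higher and spread 2.92-fold among themselves, and the groups did not overlap. The mean was 0.118 ± 0.0135 CPM in n-Braf, and that of controls was 1.74 ± 0.858 CPM (SD, n = 3 each), 14.8-fold higher in the controls. The log2 fold change of n-Braf over control was -3.84 (SE 0.55), and -3.43 without control 1. In the authors' deposited table it is -3.84 too, from the same counts.

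**Figure D1:**
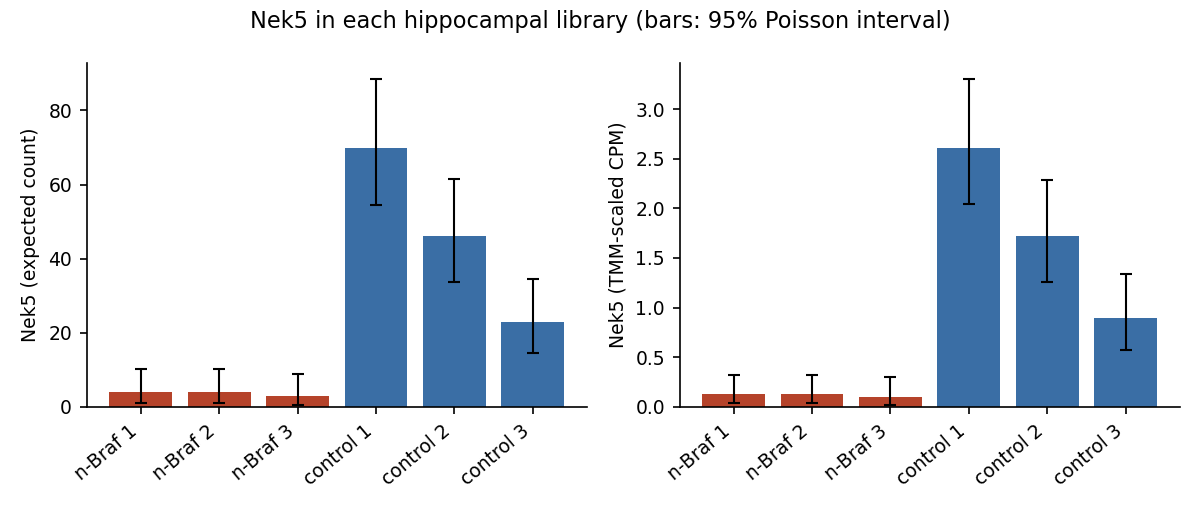
Nek5 in each library: RSEM's expected counts (left) and CPM after TMM scaling (right), with the n-Braf libraries in red and the controls in blue. Error bars are 95% Poisson intervals of the count, which cover counting error only. The n-Braf bars stand at 3 to 4 counts and the control bars at 23 to 70.

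Counting error alone is wide at these depths. The 95% exact Poisson interval of n-Braf 1 was 1.09 to 10.2 counts and that of control 3 was 14.6 to 34.5 counts. These intervals say nothing of the spread between mice, and Nek5 was selected on these counts, so they are a description of precision only. On the CPM scale the intervals reached at most 0.322 in the n-Braf libraries and at least 0.568 in the controls. The lowest control stood 7.11-fold above the highest n-Braf library. Nek5 had 11 counts in all over the 3 n-Braf libraries, against 139 counts over the 3 control libraries. The n-Braf libraries were the deeper ones, with 30152839 to 31832245 assigned counts, against 25227112 to 27608256 in the controls.

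The counts of Nek5 were all whole numbers, and 0 of its 3082 distinct 50-base transcript words occurred in transcripts of another GENCODE gene. Its exons share 0 bases with exons of other genes on either strand. Nek6, Nek3, Nek2, Nek8 and Nek9 also had 0 words in other genes, and the highest share was 2.2% in Nek4.

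Nek1 and Nek9 were the most abundant NEKs per length in both groups. Levels between genes are compared as CPM per kilobase of merged GENCODE exons. Nek1, a kinase of cilia and the DNA damage response whose human gene is linked to amyotrophic lateral sclerosis, led with 7.32 ± 0.0458 in n-Braf and 7.09 ± 1.05 in the controls (CPM per kb, SD, n = 3 each). Nek9, which activates Nek6 and Nek7 in mitosis, followed at 6.77 ± 0.218 in n-Braf and 7.04 ± 0.470 in the controls. Nek7, which also binds the inflammasome sensor NLRP3, stood at 4.52 ± 0.0962 in n-Braf and 4.86 ± 0.367 in the controls. Nek6 was at 2.86 ± 0.214 in n-Braf and 2.83 ± 0.136 in the controls. Nek4, a kinase linked to microtubules and cilia, was at 2.24 ± 0.0468 in n-Braf and 2.15 ± 0.0570 in the controls. These 5 genes held their order in both groups, and Nek1 and Nek9 overlapped in the controls.

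The low members were Nek3, Nek8, Nek2 and Nek5. Nek3, a cytoplasmic kinase linked to prolactin signalling, was at 0.677 ± 0.234 CPM per kb in n-Braf and 0.590 ± 0.177 in the controls. Nek8, a kinase of the proximal cilium whose loss gives cystic kidneys, was at 0.259 ± 0.0303 in n-Braf and 0.303 ± 0.113 in the controls. Nek2, which separates centrosomes before mitosis, was at 0.137 ± 0.0386 in n-Braf and 0.227 ± 0.104 in the controls. Nek5 was the lowest of the 9 in n-Braf, at 0.0406 ± 0.00466 CPM per kb, and sixth in order in the controls, at 0.601 ± 0.296. In n-Braf the ranges of neighbours in this order did not overlap for any of the 8 adjacent pairs. In the controls they overlapped for Nek1 and Nek9, for Nek5 and Nek3, and for Nek8 and Nek2.

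**Figure D2:**
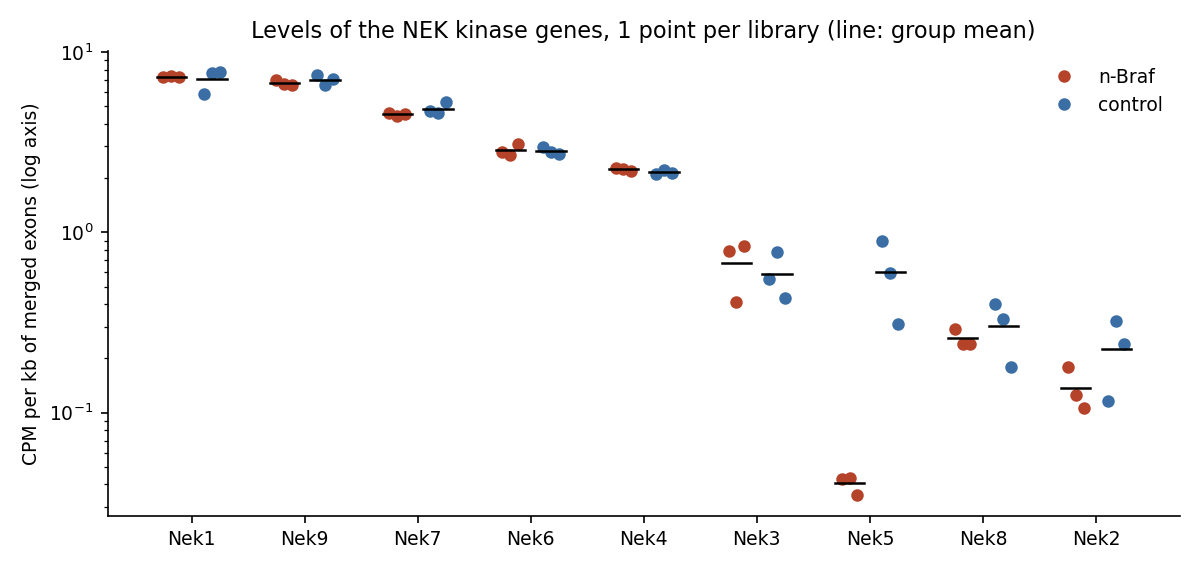
Level of each of the 9 genes in CPM per kb of merged exons on a log axis, with 1 point per library, n-Braf in red to the left of the controls in blue, and black lines at the group means. The points of both groups lie together for 8 genes, and for Nek5 the n-Braf points lie between 0.0353 and 0.0435 and the control points between 0.309 and 0.901.

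The summed level of the 9 genes was 25.3, 24.2 and 24.9 CPM per kb in n-Braf 1, 2 and 3, against 25.2, 25.8 and 26.1 in controls 1, 2 and 3. The groups overlapped. Nek5 made up between 0.141% and 0.179% of this sum in the n-Braf libraries and between 1.18% and 3.58% in the controls.

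None of the other 8 members passed the test between the groups. The quasi-likelihood test of edgeR called 0 of the 8 at an adjusted p of 0.05, and 0 had an unadjusted p under 0.05. The same test called 0% of all 20604 genes at that threshold, and 1405 genes (6.82%) had an unadjusted p under 0.05. DESeq2 called 79 genes and edgeR's exact test 66, and neither called any of the 8. The groups overlapped in all 8, where 11.5% of all genes tested did not overlap. Of the 8, 4 were higher and 4 lower, where 51% of all genes tested were lower in n-Braf. Their median log2 fold change was -0.019, against -0.00423 over all genes tested.

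The mitotic group Nek6, Nek7 and Nek9 was measured closely. Nek6 had 29.9, 28.8 and 33.2 CPM in n-Braf, against 31.9, 29.8 and 29.2 CPM in the controls. Its log2 fold change was 0.02 (95% interval -0.17 to 0.21), and its sign turned with library size as the scaling (-0.00124). The expected counts of Nek6 were not whole, 916 to 976 in n-Braf and 749 to 856 in the controls. Of its exon bases, 3.78% are shared with genes on the other strand. Nek7 had 34.0, 32.6 and 33.4 CPM in n-Braf, against 34.8, 33.8 and 38.9 CPM in the controls, where control 3 was the highest library. Its log2 fold change was -0.11 (95% interval -0.28 to 0.07). Nek9 had 37.8, 36.0 and 35.6 CPM in n-Braf, against 40.4, 35.3 and 38.1 CPM in the controls, with a log2 fold change of -0.06 (95% interval -0.22 to 0.11). As fold changes, the intervals of these 3 genes ran from 0.824 to 1.15.

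Among the members tied to cilia and DNA repair, Nek1 had 57.6, 58.2 and 57.5 CPM in n-Braf, against 46.4, 60.1 and 61.3 CPM in the controls. Control 1 was the lowest of the 6 libraries, and the n-Braf libraries lay between it and the other 2 controls. The log2 fold change was 0.05 (95% interval -0.18 to 0.27), and -0.0730 without control 1. Nek4 had 20.4, 19.9 and 19.5 CPM in n-Braf, against 18.7, 19.7 and 19.0 CPM in the controls, with a log2 fold change of 0.06 (95% interval -0.13 to 0.24). Nek8 had 1.53, 1.26 and 1.26 CPM in n-Braf, against 2.09, 1.72 and 0.934 CPM in the controls. Control 1 was highest and control 3 lowest for Nek8, the log2 fold change was -0.23 (95% interval -0.95 to 0.49), and it was 0.0227 without control 1.

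Nek2 and Nek3 had wide intervals. Nek2 had 0.814, 0.566 and 0.477 CPM in n-Braf, against 0.522, 1.46 and 1.09 CPM in the controls. Controls 2 and 3 were above every n-Braf library and control 1 was below 2 of them, and the log2 fold change was -0.72 (95% interval -1.68 to 0.24, adjusted p = 0.814 by the quasi-likelihood test of edgeR). Without control 1 the log2 fold change of Nek2 was -1.03, again without a call. The expected counts of Nek2 were not whole, 13.9 to 25.9 in n-Braf and 13.7 to 38.5 in the controls, and 6.60% of its exon bases are shared with a gene on the other strand. The strand setting of the authors' counting was not given in the sources used here. Nek3 had 1.69, 0.881 and 1.80 CPM in n-Braf, against 1.19, 1.68 and 0.934 CPM in the controls, with a log2 fold change of 0.20 (95% interval -0.59 to 0.99). The Nek3 value was -0.540 with age as a covariate.

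**Figure D3:**
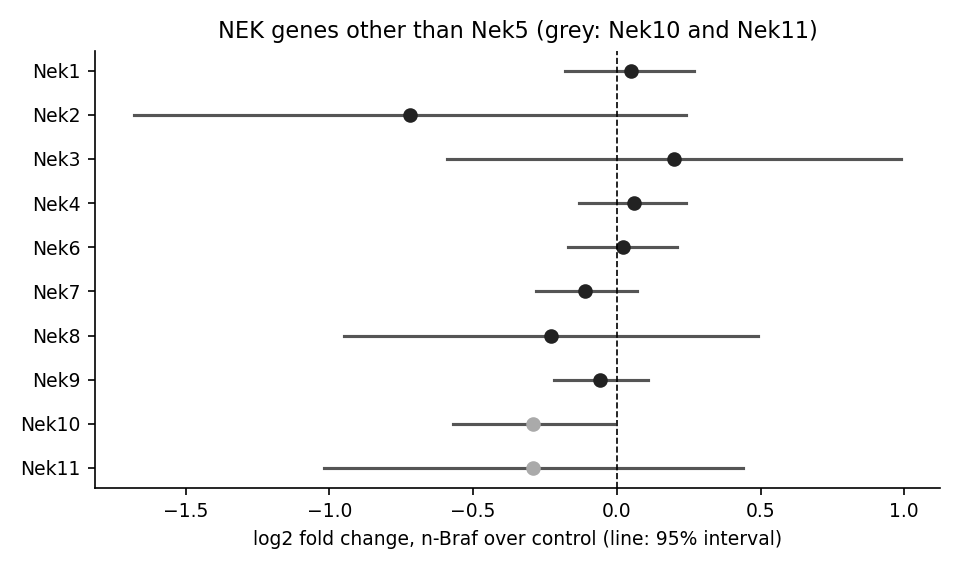
Log2 fold change of n-Braf over control for the NEK genes other than Nek5, with 95% intervals from the quasi-likelihood fit. Black points are members and grey points are Nek10 and Nek11. The intervals of Nek1, Nek4, Nek6, Nek7 and Nek9 stay within 0.28 of 0, and those of Nek2, Nek3 and Nek8 are wider.

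The remaining mouse genes of the family, Nek10 and Nek11, were not members. Nek10 had 8.92, 10.5 and 9.60 CPM in n-Braf, against 10.4, 12.5 and 12.7 CPM in the controls. Its log2 fold change was -0.29 (95% interval -0.57 to -0.01, adjusted p = 0.730 by the same test). Nek11, a kinase of the DNA damage checkpoint, had 1.19, 1.26 and 1.19 CPM in n-Braf, against 2.13, 1.38 and 0.934 CPM in the controls, with a log2 fold change of -0.29 (95% interval -1.02 to 0.44). Over the controls, Nek11 and Nek8 stood in the same order as Nek5, with control 1 highest and control 3 lowest, while in n-Braf both stayed within the range of the controls.

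The genes beside Nek5 on chromosome 8 overlapped between the groups. Nek3 lies 3229 bases from Nek5 on the side of its start, on the same strand, and Alg11, a mannosyltransferase of protein glycosylation, lies 1988 bases from its other end. Alg11 had 25.9, 24.5 and 24.3 CPM in n-Braf, against 24.4, 25.1 and 24.5 CPM in the controls, a log2 fold change of 0.01 (SE 0.08). Atp7b, a copper transporter, was at -0.34 (SE 0.27), Ckap2, a spindle protein, at -0.28 (SE 0.46), and Vps36, a subunit of the ESCRT-II sorting complex, at 0.06 (SE 0.10). The third nearest tested gene on the Alg11 side, Potefam3b, lies 1432.9 kb away and was at -0.29 (SE 0.25). Within 1000 kb on each side 19 genes other than Nek5 were tested, and their log2 fold changes ran from -0.34 to 0.20. The groups overlapped in all 19, where 11.5% of all genes did not. The quasi-likelihood test of edgeR called 0 of the 19, as it called 0% of all genes. Of the 19, 0 had an unadjusted p under 0.05, where 6.82% of all genes did.

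**Figure D4:**
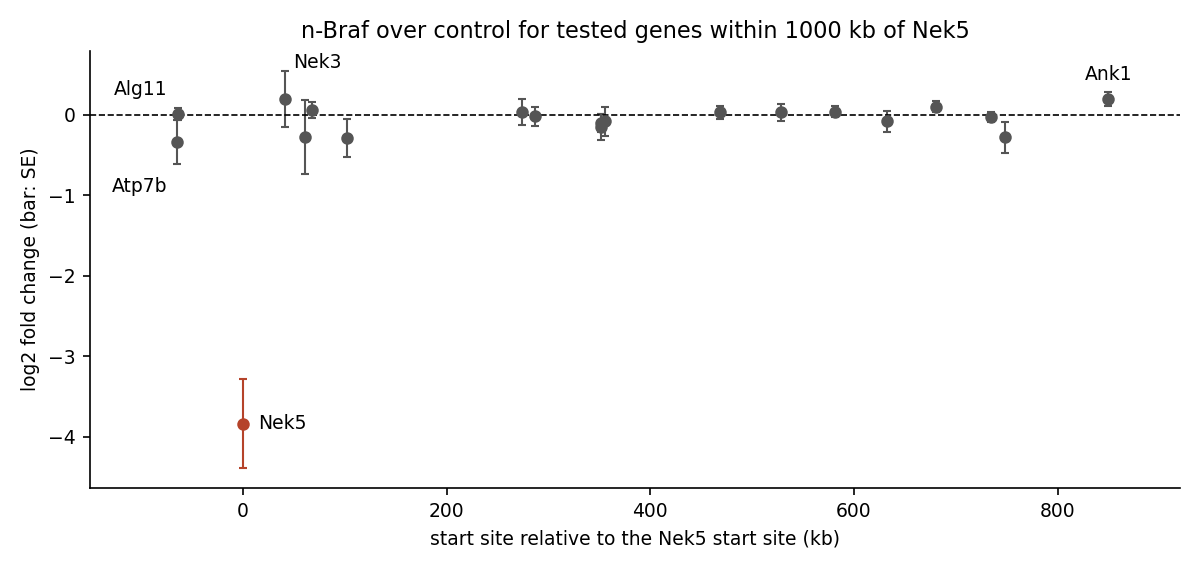
Log2 fold change of n-Braf over control for each tested gene within 1000 kb of Nek5, against the distance of its start site from that of Nek5 in kb. Bars are standard errors. Nek5 lies at -3.84 and the other 19 genes between -0.34 and 0.20.

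Markers of ventricular cells were also lower in n-Braf. The ependymal list, 18 tested genes of motile cilia and of the cells that bear them, summed to 105, 85.7 and 106 CPM in n-Braf 1, 2 and 3, against 191, 171 and 121 CPM in controls 1, 2 and 3. The choroid plexus list of 14 tested genes summed to 92.1, 110 and 104 CPM in n-Braf, against 3620, 2040 and 141 CPM in the controls. Its member Enpp2 alone made up most of the sum in each n-Braf library (65.5, 68.9 and 76.7 CPM) and in control 3 (101 CPM). In those libraries the sum therefore says little of the other markers. Among the controls Nek5 and both sums stood in the same order, with control 1 highest and control 3 lowest. Within n-Braf, Nek5 had 4, 4 and 3 counts, too few to order these libraries. Controls 1 and 2 stood far above the other libraries in choroid plexus RNA, and control 3 lay close to the n-Braf libraries. All 18 ependymal and all 14 choroid plexus genes had negative log2 fold changes, with medians of -1.16 and -3.87. In each list 14 had an unadjusted p under 0.05, where 6.82% of all genes did. The quasi-likelihood test of edgeR called 0 of these markers, as it called 0% of all genes. All n-Braf libraries lay below all controls in 12 of the ependymal and 5 of the choroid plexus genes, where 5.44% of all genes did, and no listed marker was at 0 in any library. Both lists were chosen with earlier results of these data known, so these counts are a description only. In bulk tissue, fewer cells of a type and less RNA per cell cannot be told apart.

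**Figure D5:**
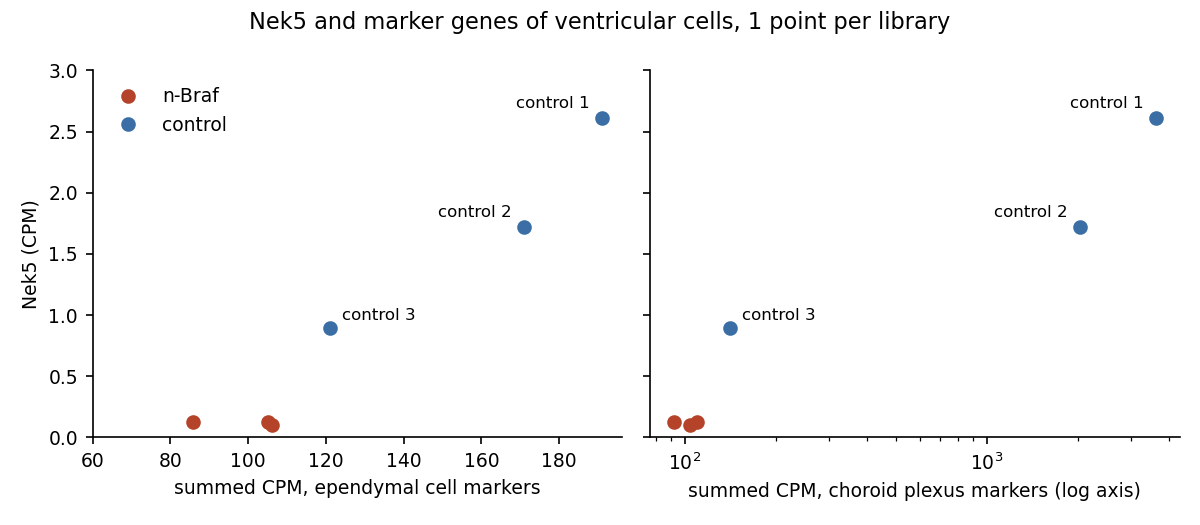
Nek5 in CPM against the summed CPM of the ependymal markers (left) and of the choroid plexus markers (right, log axis), with 1 point per library, n-Braf in red and controls in blue. The n-Braf points lie at 0.102 to 0.126 CPM of Nek5, and control 3, whose sums are 121 and 141 CPM, lies at 0.895. Enpp2 makes up most of the choroid plexus sum in the n-Braf libraries and in control 3.

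Among the ependymal markers with the highest levels, Cfap44, an axonemal protein of motile cilia, had 10.2, 9.47 and 9.94 CPM in n-Braf, against 25.4, 19.9 and 12.1 CPM in the controls. Cfap54, of the axoneme's central apparatus, had 12.8, 11.3 and 9.36 CPM in n-Braf, against 18.1, 15.5 and 14.3 CPM in the controls. The dynein heavy chains Dnah9 and Dnah5 overlapped between the groups, at log2 fold changes of -0.24 (SE 0.15) and -0.17 (SE 0.15). Of the choroid plexus markers, Ttr, which encodes transthyretin, had 3.32, 12.9 and 1.06 CPM in n-Braf, against 2040, 1120 and 13.8 CPM in the controls. Enpp2 had 65.5, 68.9 and 76.7 CPM in n-Braf, against 1140, 657 and 101 CPM in the controls, while Kl and F5 overlapped between the groups, with log2 fold changes of -2.29 (SE 0.58) and -4.33 (SE 0.96).

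Against control 3 alone the Nek5 difference was 7.61-fold, taken as control 3 over the n-Braf mean. Nek5 was selected for its low n-Braf values, here 4, 4 and 3 counts, and that choice favours a high ratio. The same ratio ran from 0.683 to 2.68 over the 18 ependymal markers, with a median of 1.34 and the highest value in Ccdc153, and from 0.395 to 2.40 over the 14 choroid plexus markers. In the fit without controls 1 and 2, where the lone control is assumed to vary like n-Braf, the log2 fold change of Nek5 was -2.88. Control 1 over control 3 was 2.92-fold for Nek5, against 0.806 to 5.02 over the ependymal markers (median 1.99) and 8.86 to 273 over the choroid plexus markers (median 27.3). The part of these cells in the Nek5 difference was not tested further.

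By the Pearson correlation of log2 CPM over the 6 libraries, the genes most like Nek5 among 19944 with a mean count of at least 10 were Adamtsl1 (r = 0.995), Mxd3 (0.992), Catip (0.990), Slc43a3 (0.990) and 1700007K13Rik (0.989). All 5 were lower in each n-Braf library than in any control, as 5.44% of all genes were, and the choice by likeness to Nek5 favours such genes. Adamtsl1 averaged 9.91 ± 0.112 CPM in n-Braf, and controls averaged 14.0 ± 1.29 CPM (SD, n = 3 each). The other 4 had log2 fold changes between -1.14 and -1.82. Depth, preparation and the marker content given above can move many genes together, so r is a description only. Depth and marker content also differed between the groups. The ependymal markers had a median r of 0.87 with Nek5 and the choroid plexus markers of 0.87, against 0.00 over all genes compared. Because Nek5 was selected for its gap between the groups, any list lower in n-Braf tends to correlate with it. The other 8 NEKs ranged from -0.71 for Nek4 to 0.47 for Nek9.

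Among genes that act with the NEKs, the quasi-likelihood test of edgeR called 0 members of any partner list in either direction. It called 0% of all genes tested, so this count is not particular to the partners. Of 18 centrosome genes 4 had positive and 14 negative log2 fold changes (median -0.04), against -0.00423 over all genes tested. In that list Cdk5rap2, a scaffold of the pericentriolar material, had 31.5, 34.8 and 41.5 CPM in n-Braf, against 42.3, 41.7 and 41.8 CPM in the controls, and Cep250, the linker protein that Nek2 phosphorylates, was at -0.09 (SE 0.08). Ninl and Cntln were at 0.29 (SE 0.17) and -0.08 (SE 0.08). Of 12 tested genes of the mitotic kinase cascade and spindle 9 were higher and 3 lower, with a median of 0.09. Kif11, the spindle motor that Nek6 phosphorylates, was at 0.34 (SE 0.27), Tpx2 at 0.29 (SE 0.26), the kinase gene Aurka at -0.50 (SE 0.41) and Eml3 at -0.25 (SE 0.17). Summed markers of dividing cells, led by Pcna and Mki67, ranged over 26.3 to 31.0 CPM in n-Braf, against 29.4 to 33.1 CPM for controls.

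The Nek8 cilium module had 5 of 12 genes higher and 7 lower (median log2 fold change -0.03). In that list Wwtr1 was at -0.11 (SE 0.11) and Bicc1 at -0.22 (SE 0.23). Of 22 primary cilium genes 8 were higher and 14 lower (median -0.04). Sstr3, a somatostatin receptor of neuronal cilia, had 24.6, 24.5 and 22.9 CPM in n-Braf, against 20.2, 21.5 and 17.1 CPM in the controls (log2 fold change 0.29, SE 0.10, adjusted p = 0.653 by the quasi-likelihood test of edgeR). Gpr161, a ciliary receptor, was at 0.27 (SE 0.12), Ift140, of intraflagellar transport, at -0.17 (SE 0.08), and Cep290 at -0.15 (SE 0.08). The 18 ependymal genes, which hold the motile cilia genes, had a median of -1.16.

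Of 5 tested inflammasome genes around Nek7 3 were higher and 2 lower (median log2 fold change 0.01). Nlrp3 had 0.720, 0.409 and 0.511 CPM in n-Braf, against 0.634, 0.935 and 0.195 CPM in the controls. Casp1 was at 0.15 (SE 0.57), Il18 at -0.06 (SE 0.20) and Gsdmd at 0.05 (SE 0.29). Of 11 genes of the DNA damage response around Nek1 4 were higher and 7 lower (median -0.02). Vdac1, a mitochondrial channel reported as a Nek1 substrate, had 163, 151 and 155 CPM in n-Braf, against 135, 140 and 143 CPM in the controls (log2 fold change 0.16, SE 0.06, adjusted p = 0.676 by the same test). Tlk1, a kinase reported to act on Nek1, was at 0.13 (SE 0.06). In these 2 genes every n-Braf library lay above every control, as in 6.09% of all genes. Rad54l, a repair gene, was at -0.43 (SE 0.19), with every n-Braf library below every control, as in 5.44% of all genes. The checkpoint kinase gene Atr was at -0.18 (SE 0.09) and overlapped. In this list 3 of 11 genes did not overlap, where 11.5% of all genes did not. Naming genes by smallest p favours those without overlap.

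Braf itself, which checks the labels, had 185, 184 and 205 CPM in n-Braf, against 116, 123 and 116 CPM in the controls (log2 fold change 0.69, SE 0.07, adjusted p = 0.0533 by the quasi-likelihood test of edgeR), and Camk2a was at 0.16 (SE 0.11). Excitatory neuron markers, led by Camk2a and Grin2a, were present in every library, with sums of 4840 to 6340 CPM in n-Braf, against 4840 to 5240 CPM in controls. Sums of inhibitory neuron markers (led by Gad1 and Gad2), microglia markers (Csf1r among them) and endothelial markers (Flt1 and Slco1a4) overlapped between the groups. Oligodendrocyte sums (Mbp among the markers) overlapped too, at 1430 to 1950 CPM in n-Braf, against 1680 to 2180 CPM in controls, but all 8 markers had negative log2 fold changes (median -0.31), 3 of them with an unadjusted p under 0.05, and 0 passed by the quasi-likelihood test of edgeR. Astrocyte markers, led by Slc1a2 and Slc1a3, summed to 4850 to 4950 CPM in n-Braf, against 4310 to 4600 CPM in controls, without overlap. Slc1a2 made up most of each sum, at 3670, 3640 and 3680 CPM in n-Braf, against 3150, 3350 and 3350 CPM in the controls. Gene by gene the astrocyte list was mixed, as 5 of its 8 log2 fold changes were positive, 3 were negative and their median was 0.03. Only 2 of these 8 genes had every n-Braf library above every control.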

How the data were processed

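Per the submitters' processing notes, reads were handled with bcl2fastq 2.20, fastp 0.20.1, STAR, RSEM and edgeR 3.36.0 on mm10. No version of STAR or RSEM, annotation or counting strand is given in the sources used here. Per the labels' protocols, libraries were made from 10.0 ng of total RNA with a stranded SMART-Seq kit. The authors deposited 1 table of expected counts per gene, of which 26.2% to 31.4% per library were not whole numbers. The same table holds the authors' log2 fold changes and mean log2 CPM, and their p-values.

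Expected counts were rounded, filtered with filterByExpr (minimum count 10), which kept 20604 genes and all 9 members, scaled by TMM and tested with edgeR 4.0.16 (R 4.3.3) by the quasi-likelihood test in its legacy form, group as the only term, with Benjamini-Hochberg adjustment over all genes tested and a threshold of 0.05. The test was run on simulated data first. Log2 CPM used a prior count of 2. Intervals of fold changes come from the standard error of this fit. DESeq2 1.42.0 and limma 3.58.1 served as alternatives. Coordinates and merged exon lengths are those of GENCODE M21, matched through gene identifiers. Poisson intervals cover counting error only. No pair of libraries agreed within counting noise. The members and lists were chosen with earlier results of these data known. Named besides the members were Braf, Camk2a, Nek10, Nek11, the nearest 3 tested genes on each side of Nek5, up to 4 genes of each partner list by smallest unadjusted p, 2 of each cell type list by mean CPM (4 for ependymal cells and choroid plexus) and the 5 genes most like Nek5. Some genes that this rule names are not reported here.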

Additional observations from a re-analysis of the deposited data

How the results depend on the processing

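The 9 members were refitted under 16 alternatives, and calls were also counted at an adjusted p of 0.1. The 8 members other than Nek5 had 0 calls under each. In the fit without control 1, 1 of these 8 had an unadjusted p under 0.05 by the quasi-likelihood test, where 947 of 20620 genes tested did. Over all genes, DESeq2 called 79, edgeR's exact test 66, an adjusted p of 0.1 gave 2, and the fit without controls 1 and 2 called 3. Leaving out 1 library at a time gave 0 to 82 calls, the 82 without control 3. The log2 fold change of Nek5 was -4.48 with age as a covariate and -2.88 without controls 1 and 2, and -4.15 to -3.43 with 1 library left out. Signs turned, always without a call, for Nek1 (-0.0866 without controls 1 and 2, and -0.0730 to 0.117 with 1 library left out), Nek3 (-0.540 with age), Nek6 (-0.00124 with library size alone, -0.114 with age, and -0.0473 to 0.0594 with 1 library left out) and Nek8 (0.530 without controls 1 and 2, and -0.493 to 0.0227 with 1 library left out). The cause was not tested. With the replicate number as a replicate block Nek5 was at -3.79 and 0 genes were called. Same-numbered libraries deviated together with r of 0.103, -0.0457 and -0.0145, and 1 of 3 correlated best with its own number. This check showed no pairing by number, and with 3 pairs it cannot exclude one. Few counts limit Nek5, Nek2, Nek3 and Nek8 most.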
